A study of Mus musculus with 13 samples.

Results

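The 4 hippocampus libraries of 3xTg mice given AAV9 with Nurr1 and Foxa2 (N+F) were set against the 3 hippocampus libraries of 3xTg mice given control AAV9. These 7 of the 13 libraries of the series were chosen by their sample titles, and the other libraries are of cultured glia. The 3xTg mouse is a model of Alzheimer disease that carries human amyloid precursor protein and tau transgenes and an altered presenilin 1 gene, and both groups shared that genotype. AAV9 is an adeno-associated virus used to carry genes into brain cells. All 7 libraries also carry an amyloid beta treatment label, without saying how these mice received it. The promoter of the vectors, the route, the age and sex of the mice and the time after injection are not stated in the labels. Expression was measured by mRNA sequencing of hippocampus RNA and deposited as counts per gene symbol. The labels do not say whether replicates are separate animals, and p-values then reflect only how far these samples spread, which can be technical.

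Nurr1, encoded by Nr4a2, is a nuclear receptor of the NR4A family that acts without a known natural ligand and is needed for midbrain dopamine neurons to form and persist. Foxa2 is a forkhead factor that opens chromatin and works with Nurr1 in the same lineage. The hippocampus is built from pyramidal neurons of the CA fields, granule neurons of the dentate gyrus, interneurons, glia and vessels, and its pyramidal neurons are among the cells lost or altered in Alzheimer disease.

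The 4 N+F libraries held 10194437 to 12260884 counts, and the 3 control libraries held 25139406, 12092488 and 12571452, so control 1 was the deepest. Between 17739 and 20221 symbols had at least 1 count per library. Of 23238 symbols, 15523 had enough counts to be tested. Correlations between libraries on log2 CPM ran from 0.960 to 0.972. Markers of CA1, CA3 and dentate neurons were counted in every library, and so were markers of striatum and the hypothalamic peptides Hcrt and Pmch. Xist lay between 57.7 and 95.98 CPM in all 7 libraries, and no Y-linked gene on the list exceeded 1.25 CPM. CPM here means the count scaled to the library total after TMM adjustment.

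**Figure D1:**
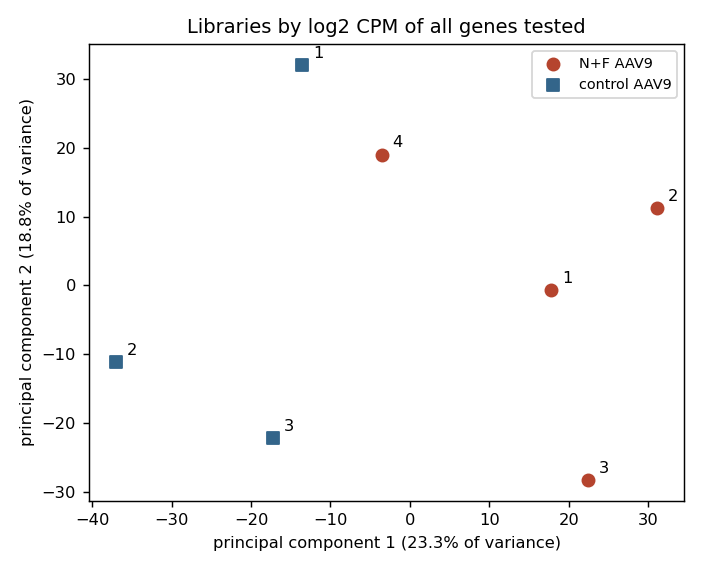
Scores of the 7 libraries on the first and second principal components of log2 CPM over all genes tested (unitless scores; circles, N+F AAV9 libraries 1 to 4; squares, control AAV9 libraries 1 to 3). On the first component, 23.3% of the variance, the N+F libraries lie between -3.55 and 31.1 and the controls between -37.0 and -13.5.

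On the first principal component the N+F libraries scored 17.8, 31.1, 22.4 and -3.55 and the control libraries scored -13.5, -37.0 and -17.2. The groups did not overlap on that component, which held 23.3% of the variance, while the next 2 components held 18.8% and 17.0%.

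The delivered genes were read first. Nr4a2 had 27.2, 22.01, 25.2 and 33.5 CPM in the N+F libraries and 30.1, 19.6 and 44.8 CPM in the control libraries. The groups overlapped, with the highest and the lowest of the 7 values both in controls. The log2 fold change was -0.22 ± 0.24 (SE; edgeR quasi-likelihood test, Benjamini-Hochberg adjusted p = 0.872 over all genes tested), and its sign turned to 0.11 when control 3 was left out. Foxa2 had 26, 5, 1 and 6 counts in N+F libraries 1 to 4 and 5, 1 and 1 counts in the controls, too few for the filter. N+F library 1 held 68.4% of the Foxa2 counts of its group. As CPM of the library total, Foxa2 averaged 0.894 ± 1.12 in N+F libraries and 0.120 ± 0.0680 in controls (SD, n = 4 and 3). The difference of 0.774 CPM gave p = 0.114 in a two-sided exact permutation test that doubles the smaller tail, where 35 arrangements allow no p below 0.0571. Comparing the absolute differences instead gave an exact permutation p = 0.314. The doubled tail was chosen after a value had been seen, and neither p passes 0.05. Whether transcripts of the vectors could be counted under these symbols, and from which species the delivered sequences came, is not stated in the labels.

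In the cultured glia of the same series, with 1 library per group and no test, the same symbols did register. Nr4a2 stood at 487.5 CPM of the library total (exact 95% binomial interval 482 to 493) in N+F hippocampal glia and 3.35 CPM (2.94 to 3.79) in their amyloid beta control. Foxa2 stood at 140.3 CPM (137 to 143) in N+F hippocampal glia. It had 0 counts in the hippocampal control, which allows up to 0.0402 CPM at a floor of 3 counts. These intervals cover counting error only, and the glia carried a lentivirus rather than AAV9.

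Few genes separated the groups beyond the spread between libraries, and most of those that did were lower with N+F. In edgeR's quasi-likelihood test with Benjamini-Hochberg adjustment over all genes tested, 17 of 15523 genes passed an adjusted p of 0.05, which is 0.11%. Of these 16 fell with N+F (0.103%) and only Nts rose (0.00644%). The genes that fell were Fibcd1, Spink8, Neurod6, Cabp7, Gabra5, Fezf2, Grp, Il16, Golm1, Plekhg5, Iqgap2, Spp1, Cemip, Col1a1, Col5a1 and Col12a1. For each of the 17 genes, the 4 N+F and the 3 control libraries did not overlap. Over all genes tested, the groups were separated in this way for 8.11%, with 608 genes higher (3.92%) and 651 lower (4.19%).

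**Figure D2:**
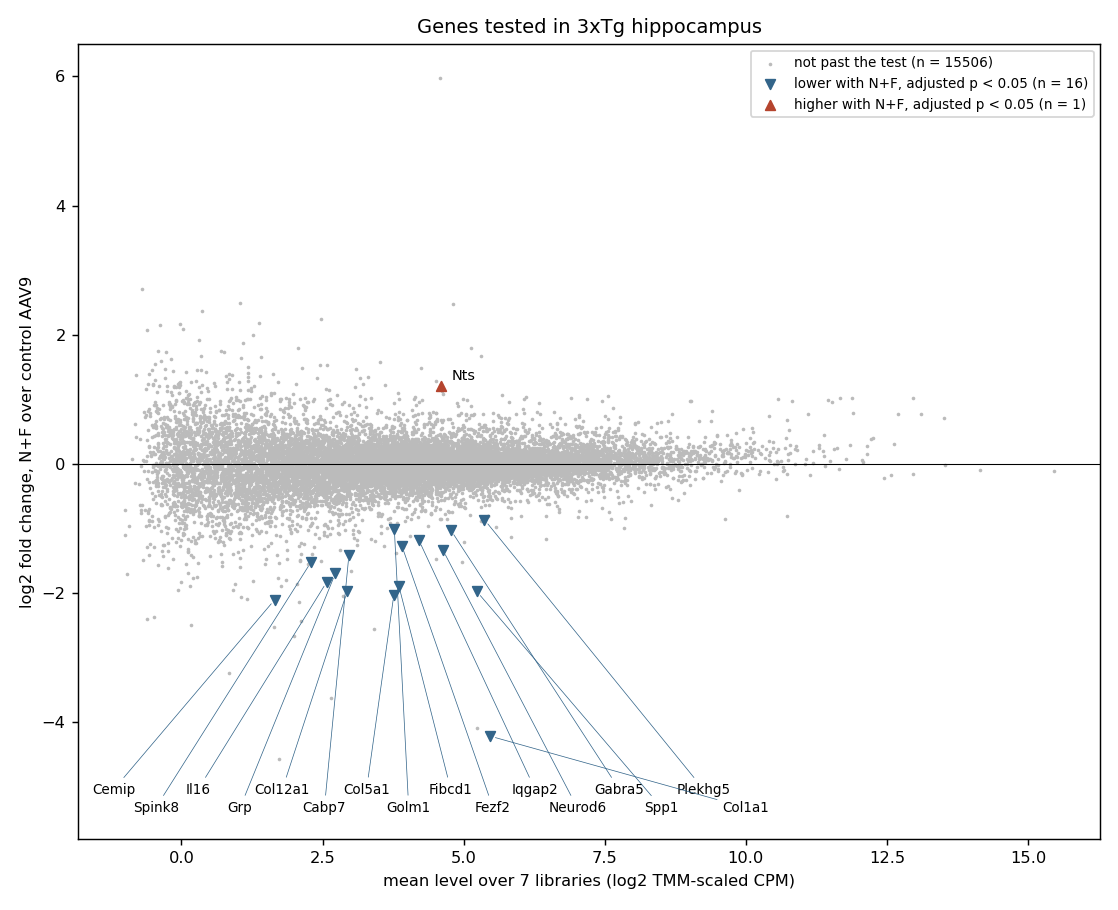
Each point is 1 of the 15523 genes tested, placed by its mean level over the 7 libraries (log2 TMM-scaled CPM, x axis) and its log2 fold change of N+F over control AAV9 (y axis). Triangles mark the 16 genes that fell and the 1 that rose at an adjusted p of 0.05, and each is named.

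At an unadjusted p of 0.05 there were 1313 genes (8.46%), 636 of them higher (4.1%) and 677 lower (4.36%). Negative fold changes made up 50.8% of all genes and positive ones 49.2%. Counts of list members below are to be read beside these shares. The lists and their members were chosen with earlier results of these data known, so such counts are descriptions and not independent support. The median log2 fold change over all genes was -0.0044 and the median of its absolute value was 0.16. A log2 fold change of at least 1 in size was fitted for 342 genes, of which 154 were higher and 188 lower. No gene among the 1738 that averaged over 100 CPM passed the adjusted test, although 152 of them were higher and 46 lower at an unadjusted p of 0.05. The 17 calls rest on the 7 libraries together. Without any one of the 4 N+F libraries edgeR called 0 genes, with 1066 to 1544 genes at an unadjusted p of 0.05. Without control 1, 2 or 3 it called 29, 3 and 1 genes, of which 13, 1 and 0 were among the 17. All 17 kept their direction in each of those fits. Their groups did not overlap, so leaving out 1 library could hardly reverse them, and the kept direction adds no support. DESeq2 called 68 genes higher and 77 lower, the 17 among them, and limma-voom called 0, with 1408 at an unadjusted p of 0.05.

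**Figure D3:**
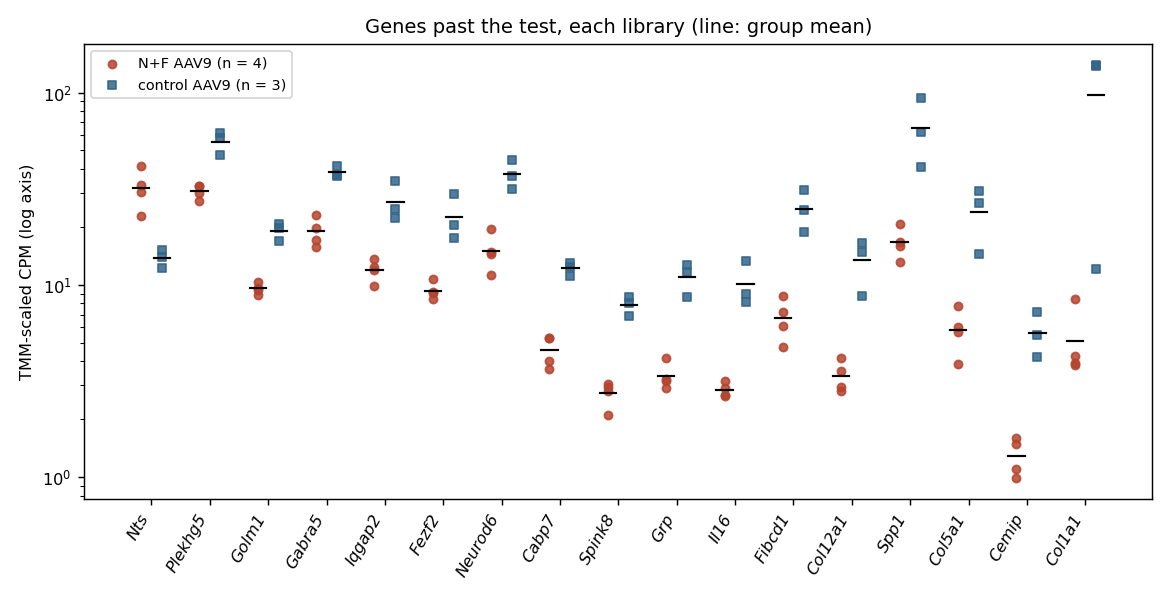
Level in every library (TMM-scaled CPM, log axis) of the 17 genes past the test, ordered from the gene that rose to the gene with the most negative log2 fold change. Circles are the 4 N+F libraries, squares the 3 control libraries and lines the group means. For every gene the 2 sets of points do not overlap, and Col1a1 shows control 1 far below controls 2 and 3.

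Promoter sequence was read for the called genes because both delivered factors bind DNA. Of the 17 genes, Col12a1, Col1a1 and Spink8 had no matched RefSeq (GRCm38.p6) entry. Grp was left out by choice, not for lack of an entry, so the motif counts below say nothing about it. For the remaining 13 genes the 250 bases before the start were read. The promoters of 4 are shown, each 5′ to 3′ on the gene's own strand: Nts as the gene that rose, and Fibcd1, Spp1 and Il16 as genes of the pyramidal, matrix and cytokine groups that fell. They lie at chr10:102490419-102490668 (minus strand), chr2:31846006-31846255 (minus), chr5:104434861-104435110 (plus) and chr7:83735540-83735789 (minus). Capitals mark a match to the AP-1 motif TGAGTCA or its reverse complement.
Nts: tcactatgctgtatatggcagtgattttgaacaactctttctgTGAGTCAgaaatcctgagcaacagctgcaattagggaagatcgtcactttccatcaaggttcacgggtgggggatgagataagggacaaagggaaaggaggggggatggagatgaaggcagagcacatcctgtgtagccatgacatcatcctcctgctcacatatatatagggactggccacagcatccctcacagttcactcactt
Fibcd1: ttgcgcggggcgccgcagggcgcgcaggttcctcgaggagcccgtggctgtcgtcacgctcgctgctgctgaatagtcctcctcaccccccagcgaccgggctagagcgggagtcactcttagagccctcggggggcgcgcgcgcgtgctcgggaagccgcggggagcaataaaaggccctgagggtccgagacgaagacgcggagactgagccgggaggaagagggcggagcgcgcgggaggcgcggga
Spp1: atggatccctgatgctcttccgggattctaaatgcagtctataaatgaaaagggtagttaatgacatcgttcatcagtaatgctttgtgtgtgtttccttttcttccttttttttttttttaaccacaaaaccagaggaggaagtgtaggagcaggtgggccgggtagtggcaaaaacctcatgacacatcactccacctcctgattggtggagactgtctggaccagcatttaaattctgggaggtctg
Il16: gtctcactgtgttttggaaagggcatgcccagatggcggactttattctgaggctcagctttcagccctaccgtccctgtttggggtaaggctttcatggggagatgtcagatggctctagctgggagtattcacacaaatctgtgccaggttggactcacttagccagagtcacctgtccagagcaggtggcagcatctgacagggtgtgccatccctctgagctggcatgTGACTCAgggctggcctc
The Nurr1 monomer motif AAAGGTCA was in 0 of the 13 promoters on either strand, against 1.31% of all 27025 RefSeq promoters of that length. Among the 11577 promoters of genes tested the share was 0.847%. The forkhead motif TGTTTAC was in 0 of 13, against 3.06% of all and 2.03% of those of genes tested. With shares this low, 0 of 13 says little about either motif. TGAGTCA is bound by Fos and Jun proteins and was searched after the Nts and Il16 sequences had been read. It was in 2 of 13, against 4.43% of all and 3.16% of those of genes tested. The 2 are Nts and Il16, whose sequences had been read before the search, so this comparison cannot show an excess. The match lies 207 to 201 bases before the start of Nts and 18 to 12 bases before the start of Il16. Neither match overlaps a match to another of the 3 motifs. A match or its lack says only which letters stand in these windows.

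The relatives of the delivered genes were also read. Nr4a1, an activity-induced gene of the same receptor family, had 38.3, 37.6, 46.03 and 40.9 CPM with N+F and 14.8, 12.7 and 33.4 CPM in controls. Its N+F libraries all lay above the controls, yet its log2 fold change of 1.01 ± 0.28 missed the threshold (edgeR adjusted p = 0.279). Nr4a3, Foxa1 and Foxa3 had overlapping groups, with log2 fold changes of -0.03, -0.30 and 0.03. Of 11 dopamine neuron and Nurr1 target genes 9 were tested and 0 passed in edgeR, or at an unadjusted p of 0.05. Their median log2 fold change was 0.11 against -0.0044 over all genes. With 1 library left out that median lay between -0.04 (without control 3) and 0.32 (without control 1). Tyrosine hydroxylase, Th, which makes the dopamine precursor, had 14.2, 20.3, 6.42 and 10.8 CPM with N+F and 12.7, 13.9 and 8.38 CPM in controls.

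Genes of hippocampal pyramidal neurons formed the first group among the calls, and 3 of the 14 CA1 and general pyramidal markers tested fell. Fibcd1, an acetyl-group receptor of the cell surface that marks CA1, had 7.23, 4.74, 8.69 and 6.08 CPM in the N+F libraries and 18.8, 24.6 and 31.1 CPM in the control libraries. Every N+F library lay far below the lowest control. Fibcd1 averaged 6.69 ± 1.68 CPM with N+F and 24.8 ± 6.20 CPM in controls (SD, n = 4 and 3) and fell by 1.89 ± 0.23 on the log2 scale (SE, edgeR adjusted p = 0.0267). Spink8, a Kazal-type protease inhibitor gene that also marks CA1, had 2.11, 2.95, 3.06 and 2.80 CPM with N+F and 6.91, 8.02 and 8.62 CPM in controls, and fell by 1.51 ± 0.24 (edgeR adjusted p = 0.0436). Neurod6, a transcription factor of forebrain excitatory neurons, had 11.2, 14.8, 14.4 and 19.6 CPM with N+F and 36.98, 31.7 and 44.8 CPM in controls. The groups of both genes did not overlap, and Neurod6 fell by 1.33 ± 0.19 (edgeR adjusted p = 0.0342).

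The other CA1 and pyramidal markers gave mixed values. Neurod2 and Nptx1, a transcription factor and a secreted pentraxin of excitatory synapses, had log2 fold changes of -0.84 and -0.72 with groups that did not overlap, but neither passed (edgeR adjusted p = 0.196 and 0.221). Wfs1, a strong CA1 marker, had 85.9, 78.4, 95.1 and 92.9 CPM with N+F and 50.3, 54.6 and 89.5 CPM in controls, with overlapping groups. Camk2a, the kinase subunit of excitatory synapses, had 1062, 1690.4, 1286 and 1129 CPM with N+F and 1285, 1358 and 1594 CPM in controls. Over the whole list 4 of 14 members had positive and 10 negative fold changes, and the median was -0.15 against -0.0044 over all genes, where 50.8% were negative and 49.2% positive. Without N+F 4 it was -0.28, and without control 3 -0.00366. Without control 3 the list median was thus no lower than that over all genes. In a bulk sample fewer cells of a type and less RNA per cell cannot be told apart.

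Gabra5, Cabp7 and Fezf2 also fell. Gabra5, the alpha 5 subunit of extrasynaptic GABA-A receptors on hippocampal pyramidal neurons, had 15.8, 17.2, 19.9 and 22.95 CPM with N+F and 37.4, 36.9 and 41.4 CPM in controls. Its control values were close together and above every N+F library, and Gabra5 fell by 1.02 ± 0.15 (edgeR adjusted p = 0.0371). It was the only 1 of 16 GABA receptor subunit genes tested that passed, and the list median was 0.045. Cabp7, a calcium-binding protein of the Golgi, had 4.02, 5.28, 3.65 and 5.28 CPM with N+F and 11.1, 12.4 and 12.96 CPM in controls. Fezf2, a zinc finger factor of subcortical projection neurons, had 9.04, 8.41, 10.7 and 9.20 CPM with N+F and 17.6, 20.5 and 29.6 CPM in controls. They fell by 1.41 ± 0.21 and 1.27 ± 0.19 (edgeR adjusted p = 0.0370 and 0.0375), and control 3 gave the highest value of both.

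Grp, the gastrin-releasing peptide precursor, had 2.91, 3.22, 3.16 and 4.16 CPM in N+F libraries and 8.59, 11.6 and 12.7 CPM in controls, and fell by 1.69 ± 0.23 (edgeR adjusted p = 0.0267). Il16, the precursor of interleukin 16, which also has a neuronal form, had 2.91, 2.68, 3.16 and 2.64 CPM with N+F and 8.16, 13.3 and 8.93 CPM in controls. The N+F values of Il16 lay close together, and it fell by 1.82 ± 0.24 (edgeR adjusted p = 0.0267). Plekhg5, a guanine nucleotide exchange factor, had 27.2, 32.5, 32.7 and 29.99 CPM with N+F and 57.9, 61.3 and 47.6 CPM in controls. Golm1, a Golgi membrane protein, had 8.84, 10.4, 9.38 and 9.68 CPM with N+F and 20.7, 19.6 and 16.99 CPM in controls. Iqgap2, a scaffold protein of the actin skeleton, had 9.84, 12.4, 11.95 and 13.6 CPM with N+F and 24.7, 34.5 and 22.1 CPM in controls. All 3 genes fell, with log2 fold changes of -0.86 ± 0.13, -0.999 ± 0.15 and -1.18 ± 0.18 (edgeR adjusted p = 0.0375 for each).

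Among dentate gyrus markers 0 of 11 tested passed edgeR, with 5 positive and 6 negative fold changes and a median of -0.24. At an unadjusted p of 0.05, 0 were higher and 4 lower. Over all genes 4.1% were higher and 4.36% lower at that p. Prox1, which specifies granule neurons, had 4.82, 5.90, 4.84 and 6.80 CPM with N+F and 6.26, 11.03 and 7.03 CPM in controls. C1ql2, a mossy fibre synapse protein, had 7.23, 6.62, 11.9 and 11.7 CPM with N+F and 10.3, 41.2 and 17.5 CPM in controls. Control 2 was highest for both genes, and the dentate list median was -0.52 with control 3 left out and -0.09 with N+F library 2 left out. Of the 10 CA2 and CA3 markers tested 0 passed, with 4 higher and 2 lower at an unadjusted p of 0.05 and a median of -0.09. The higher ones were Pcp4, Cacng5, Coch and Nptx2, with log2 fold changes of 0.74, 0.65, 0.57 and 0.46. The lower ones were Grik4 and St18. Grik4, a kainate receptor subunit of CA3, had 13.96, 5.64, 11.3 and 10.2 CPM with N+F and 20.7, 21.4 and 15.6 CPM in controls, and its groups did not overlap (edgeR adjusted p = 0.278).

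The matrix genes that fell were 3 collagens, osteopontin and a hyaluronan-degrading protein. Col12a1, a collagen that sits on the surface of fibrils, had 2.81, 2.95, 3.56 and 4.16 CPM in N+F libraries and 8.73, 16.5 and 14.9 CPM in controls, and fell by 1.97 ± 0.26 (edgeR adjusted p = 0.0267). Col5a1, a fibrillar collagen that sets the width of collagen I fibrils, had 6.03, 7.78, 3.85 and 5.68 CPM with N+F and 14.5, 26.6 and 30.7 CPM in controls, and fell by 2.02 ± 0.28 (edgeR adjusted p = 0.0267). Col1a1, the main fibrillar collagen chain of bone, skin and meninges, had 3.82, 3.94, 4.25 and 8.48 CPM with N+F and 12.03, 139.8 and 138 CPM in controls. Control 1 was thus close to N+F library 4, while controls 2 and 3 stood far above all others. Col1a1 fell by 4.21 ± 0.65 (edgeR adjusted p = 0.0375).

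In the next 2 fibrillar collagens controls 2 and 3 were again far above the rest, and neither passed. Col1a2, the partner chain, had 3.21, 4.47, 4.45 and 6.80 CPM with N+F and 8.09, 125 and 113 CPM in controls (edgeR adjusted p = 0.0573). Col5a2 had 4.62, 4.20, 1.09 and 3.68 CPM with N+F and 8.20, 28.9 and 23.5 CPM in controls (edgeR adjusted p = 0.0736). The basement membrane collagen Col4a1 was different, with 14.4, 17.6, 14.03 and 18.4 CPM with N+F and 36.2, 15.5 and 18.9 CPM in controls, where control 1 was highest. Of the 25 collagens tested 23 had negative fold changes, against 50.8% of all genes. Among them 3 fell and 0 rose, and the median was -0.44. That median shrank to -0.10 without control 1 and grew to -0.68 without control 3.

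Spp1, the secreted phosphoprotein osteopontin of microglia, bone and injured tissue, had 16.8, 20.8, 16.003 and 13.1 CPM in N+F libraries and 40.8, 93.6 and 62.3 CPM in controls. It averaged 16.7 ± 3.15 CPM with N+F and 65.6 ± 26.5 CPM in controls (SD, n = 4 and 3) and fell by 1.97 ± 0.25 on the log2 scale (SE, edgeR adjusted p = 0.0267). The lowest control lay well above the highest N+F library. Cemip, a protein needed to break down hyaluronan, had 1.10, 0.984, 1.48 and 1.60 CPM with N+F and 4.22, 7.18 and 5.45 CPM in controls, and fell by 2.10 ± 0.33 (edgeR adjusted p = 0.0375). It was the only 1 of 15 hyaluronan and proteoglycan genes tested that passed. Among 23 noncollagen matrix genes, all tested, Spp1 alone passed and the median was -0.73. All 23 had negative fold changes, against 50.8% of all genes. Lox, which crosslinks collagen, had 0.100, 0.537, 0.494 and 0.0800 CPM with N+F and 1.04, 10.9 and 10.1 CPM in controls and did not pass (edgeR adjusted p = 0.0779). Fn1, fibronectin, had 16.7, 27.7, 22.7 and 14.96 CPM with N+F and 21.2, 60.2 and 61.6 CPM in controls, and control 1 lay inside the N+F range.

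Some genes of bone cells were high in controls 2 and 3. On a list of 19 bone cell markers, drawn up after these values were seen, 10 were tested and 0 passed edgeR, with 2 higher and 4 lower at an unadjusted p of 0.05. Its summed level ran from 179 to 295 CPM in N+F libraries and from 163 to 300.1 CPM in controls, and most of that sum came from Runx2, Phex and Omd. The median of the tested markers was 3.92, 2.64, 3.01 and 3.72 CPM in N+F libraries and 2.74, 12.8 and 9.33 CPM in controls. Ibsp, bone sialoprotein, had 1.61, 1.34, 0.790 and 1.04 CPM with N+F and 0.573, 10.2 and 12.4 CPM in controls. Acp5, the acid phosphatase of osteoclasts, had 0.100, 0.178, 0.691 and 0.160 CPM with N+F and 0.358, 11.1 and 4.50 CPM in controls. Phex, Calcr and Runx2, a bone peptidase, the calcitonin receptor and a bone transcription factor, lay on the other side, with log2 fold changes of 0.69, 1.09 and 0.35. Between 1 and 4 of the 19 markers had 0 counts in each library, the osteocyte marker Mepe among them in 5 of the 7. The part of these markers in the results for Spp1 and the collagens was not tested.

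**Figure D4:**
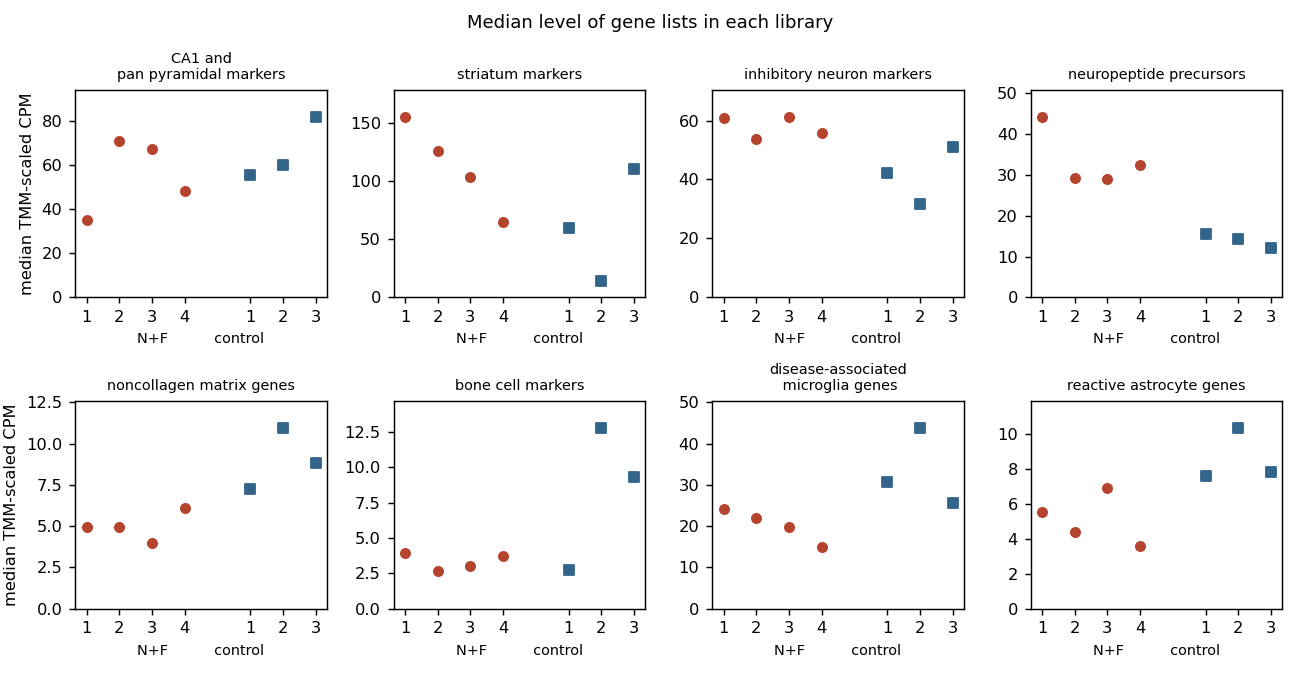
Median level of the tested members of 8 gene lists in each library (TMM-scaled CPM, linear axes from 0; circles, N+F libraries 1 to 4; squares, control libraries 1 to 3). The groups do not overlap in the panels of inhibitory neuron, neuropeptide, noncollagen matrix, disease-associated microglia and reactive astrocyte genes, with neuropeptide medians of 29.0 to 44.3 CPM with N+F and 12.1 to 15.6 CPM in controls. In the bone cell marker panel controls 2 and 3 stand above the other 5 libraries, and in the striatum panel control 2 is lowest.

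Meningeal fibroblast, mural and endothelial markers were read as possible companions of the matrix genes. Among 13 meningeal fibroblast markers only Col1a1 fell, 9 had negative fold changes, 0 were higher and 4 lower at an unadjusted p of 0.05, and the median was -0.41. Leaving out control 2 gave a median of -0.12 and leaving out N+F 4 one of -0.56. Dcn, Col1a2 and Col3a1, the other 3 at that level, are matrix genes of fibroblasts, with log2 fold changes of -1.11, -4.09 and -2.44. Slc6a13 and Ptgds, a transporter and the prostaglandin D synthase of the meninges, had log2 fold changes of 0.25 and 0.04. Of 12 mural markers 0 passed edgeR, with 0 higher and 1 lower at an unadjusted p of 0.05. Of 14 endothelial markers 0 passed, with 0 higher and 4 lower at that level and a median of -0.32 that shrank to -0.07 without control 3. Flt1, a VEGF receptor, had 6.33, 7.16, 6.72 and 6.64 CPM with N+F and 11.1, 8.35 and 15.02 CPM in controls (edgeR adjusted p = 0.281). Among 19 matrix proteases and inhibitors tested 0 passed, with 0 higher and 4 lower at an unadjusted p of 0.05. Their median was -0.24, which was -0.15 without control 2. Over all genes 4.1% were higher and 4.36% lower at that p.

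Neuropeptide precursors held the only gene that rose among the 15523 tested. Nts, the neurotensin precursor, had 41.7, 22.8, 30.2 and 33.1 CPM in N+F libraries and 15.1, 12.3 and 13.9 CPM in control libraries. It averaged 31.96 ± 7.80 CPM with N+F and 13.8 ± 1.42 CPM in controls (SD, n = 4 and 3), a log2 fold change of 1.21 ± 0.20 (SE, edgeR adjusted p = 0.0481). The lowest N+F library was well above the highest control. This was the weakest of the 17 calls. It passed in 5 of the 19 other settings. It was lost with upper-quartile scaling, with a filter of 1 CPM in 3 libraries, without Rn45s (a ribosomal RNA symbol), with control 1 thinned to a lower depth, with both forms of limma-voom, with the replicate block and without any one of the 7 libraries, and its highest adjusted p was 0.203, in edgeR without control 2.

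Of 22 neuropeptide precursors tested 18 had positive and 4 negative fold changes, 1 rose, 1 fell (Grp), and the median was 0.59. The groups did not overlap for 8 that were higher and 1 that was lower, against 3.92% and 4.19% of all genes. Avp, the vasopressin precursor, had 55.6, 76.9, 27.8 and 40.2 CPM with N+F and 16.2, 16.5 and 10.6 CPM in controls, and narrowly missed the threshold at a log2 fold change of 1.79 ± 0.30 (edgeR adjusted p = 0.0611). Oxt, the oxytocin precursor, had 69.99, 37.4, 57.6 and 59.1 CPM with N+F and 10.7, 35.6 and 7.19 CPM in controls (edgeR adjusted p = 0.267). Pdyn, the prodynorphin gene, had 46.9, 47.6, 44.1 and 31.8 CPM with N+F and 21.5, 11.5 and 30.9 CPM in controls (edgeR adjusted p = 0.272). Hcrt and Pmch, peptides made in the lateral hypothalamus, had log2 fold changes of 0.06 and -0.25 with overlapping groups. Cck, a peptide of cortical and hippocampal neurons, had 177, 288, 329.9 and 282 CPM with N+F and 264, 359 and 303 CPM in controls.

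Striatal markers were in part high in the same libraries. The 12 tested were all on the positive side, median 0.92, but 0 passed edgeR and 3 reached an unadjusted p of 0.05, all higher. Their summed level was 3043, 2579, 2787 and 1836 CPM in N+F libraries and 1228, 550.4 and 2516 CPM in controls, and none of the 12 was at 0 in any library. Ppp1r1b, the phosphoprotein DARPP of medium spiny neurons, had 799, 644, 748 and 449 CPM with N+F and 221, 80.3 and 701 CPM in controls. Control 3 lay inside the N+F range for 9 of the 12 genes and control 2 was the lowest library for 11. The median of the list was 0.45 without control 2 and 1.60 without control 3. The part of striatal RNA in the neuropeptide values was not tested.

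Of 16 inhibitory neuron markers 11 had positive fold changes, 7 were higher in every N+F library than in every control and 0 passed edgeR, with 8 higher and 0 lower at an unadjusted p of 0.05. Over all genes tested, 3.92% were separated on the higher side and 4.1% were higher at that p. The median was 0.38. Gad2, a GABA-making enzyme, had 126, 107, 97.8 and 102 CPM with N+F and 80.7, 75.8 and 84.9 CPM in controls, a log2 fold change of 0.43 ± 0.13 (edgeR adjusted p = 0.303). Sst, the somatostatin precursor, had 400.3, 489.96, 368 and 358 CPM with N+F and 343, 264 and 297 CPM in controls, also without overlap. Pvalb, which marks fast-spiking interneurons, was on the other side, with 62.3, 58.8, 86.6 and 68.6 CPM with N+F and 74.1, 111 and 69.6 CPM in controls and overlapping groups.

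The immediate early genes gave a mixed picture. Of 17 tested 0 passed edgeR, with 4 higher and 1 lower at an unadjusted p of 0.05 and a median of 0.38. Fos had 29.1, 22.3, 27.2 and 33.03 CPM with N+F and 12.6, 19.1 and 16.8 CPM in controls, and Jun had 19.2, 22.5, 25.8 and 32.3 CPM with N+F and 36.7, 43.9 and 37.3 CPM in controls. The groups of both genes did not overlap, Fos on the higher and Jun on the lower side, and neither passed (edgeR adjusted p = 0.221 and 0.272). Without control 3 the list median was 0.68, and without control 1 it was 0.19.

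Among receptor, channel and synapse genes Gabra5 was the only call. Of 22 glutamate receptor subunits 0 passed edgeR, with 0 higher and 2 lower at an unadjusted p of 0.05, and the median was 0.0070. Grin2a, the NMDA receptor subunit of mature synapses, had 3.41, 2.24, 4.84 and 5.12 CPM with N+F and 6.48, 6.93 and 11.1 CPM in controls (edgeR adjusted p = 0.308). Of 21 potassium channel subunits 0 passed, with 1 higher and 1 lower at that level, and the median was 0.049. Of 24 synaptic vesicle and postsynaptic genes 0 passed, with 0 higher and 4 lower, and the median was -0.13. With 1 library left out it lay between -0.22 (without N+F 4) and -0.03 (without N+F 1). Shank2 and Bsn, scaffold proteins of synapses, had log2 fold changes of -0.59 and -0.40 with groups that did not overlap.

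**Figure D5:**
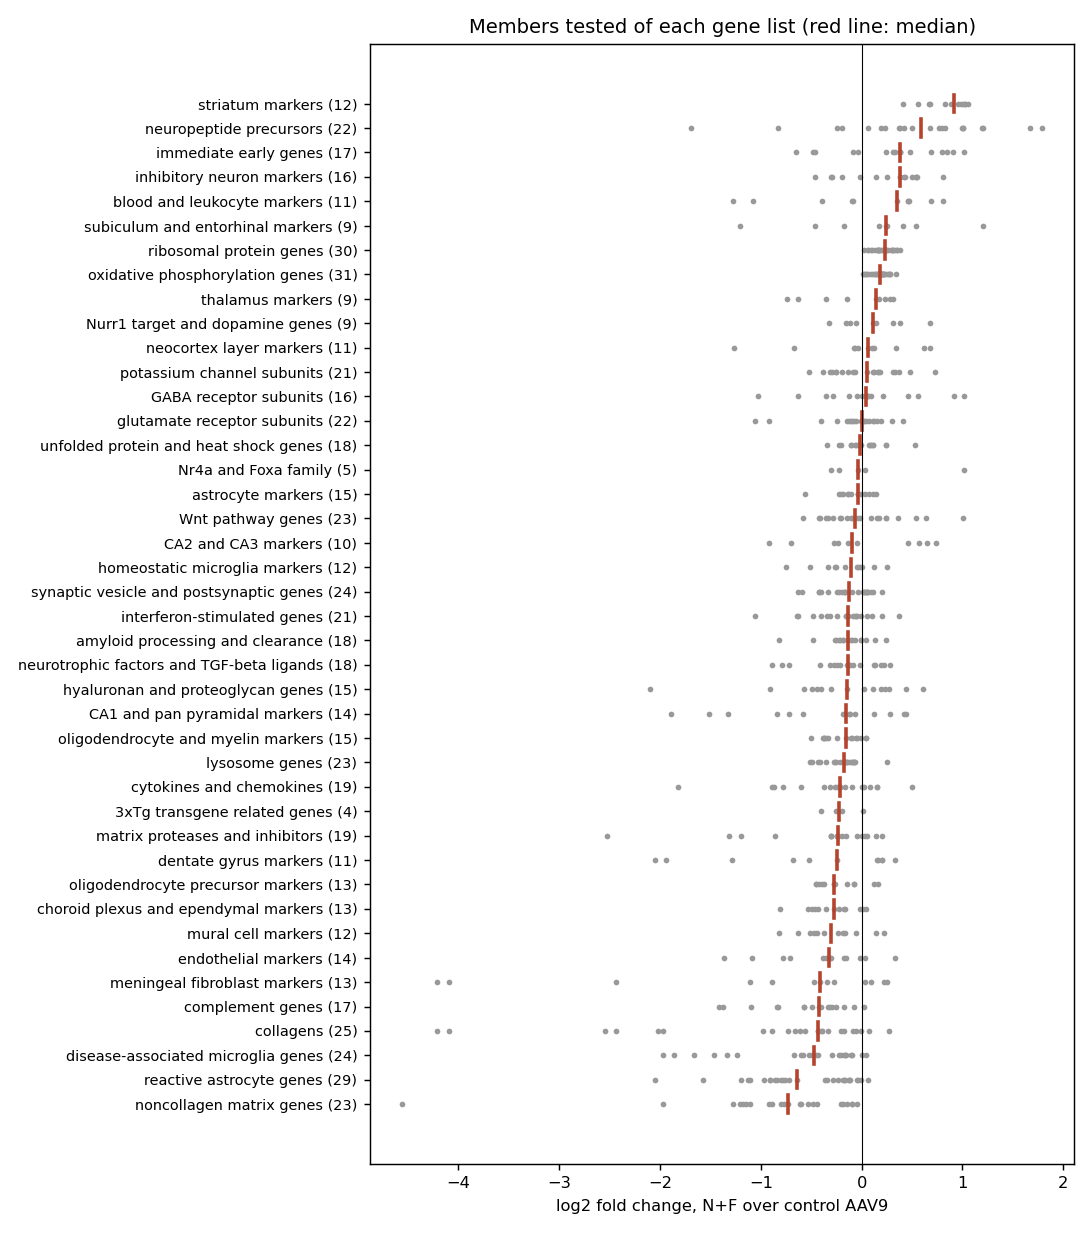
Log2 fold change of N+F over control AAV9 (x axis) of every tested member (grey points) of 42 gene lists, with the number tested in parentheses and the list median as a red line. The lists run from striatum markers at the top (median 0.92) to noncollagen matrix genes at the bottom (median -0.73).

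Microglial and inflammatory lists had mostly negative fold changes. Among 24 disease-associated microglia genes, a programme seen around amyloid plaques, 22 had negative fold changes, against 50.8% of all genes. Spp1 alone fell, and the list median was -0.47. Without control 3 it was -0.65, and without N+F 4 -0.26. Gpnmb, a lysosomal glycoprotein of that programme, had 5.82, 4.12, 4.64 and 2.08 CPM with N+F and 8.05, 22.6 and 8.93 CPM in controls, and did not pass (edgeR adjusted p = 0.221). Trem2, the lipid receptor that the programme depends on, had 27.6, 18.8, 16.7 and 15.8 CPM with N+F and 25.4, 29.4 and 17.5 CPM in controls, with overlapping groups. Lyz2, a lysozyme gene of myeloid cells, had 21.99, 15.7, 7.61 and 6.56 CPM with N+F and 26.7, 53.5 and 27.3 CPM in controls (edgeR adjusted p = 0.255). Gpnmb and Lyz2 had their highest value in control 2. Some bone markers were high in controls 2 and 3, while in control 3 both genes lay near their values in control 1. The part of those markers in these values was not tested. Of 12 homeostatic microglia markers 0 passed, with 0 higher and 2 lower at an unadjusted p of 0.05 and a median of -0.11. Leaving out control 2 gave a median of -0.04 and leaving out control 3 one of -0.23.

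Of 17 complement genes tested 16 had negative fold changes, against 50.8% of all genes, and 0 passed edgeR. At an unadjusted p of 0.05, 0 were higher and 5 lower, against 4.1% and 4.36% of all genes. The list median was -0.42. C3, the central complement component, had 12.2, 9.21, 4.45 and 7.52 CPM with N+F and 20.3, 27.8 and 16.8 CPM in controls. C1qa, a chain of the C1q recognition protein, had 44.99, 27.3, 37.04 and 24.9 CPM with N+F and 49.3, 50.4 and 49.5 CPM in controls. The groups of both did not overlap, and their log2 fold changes were -1.37 ± 0.28 and -0.57 ± 0.19 (edgeR adjusted p = 0.151 and 0.372). Among 19 cytokine and chemokine genes tested Il16 alone passed, and the median was -0.21. With 1 library left out it lay between -0.42 (without control 3) and -0.08 (without N+F 4). Tnf and Il6, signals of acute inflammation, had at most 0.215 and 0.107 CPM in any library. Of 21 interferon-stimulated genes 0 passed, and 0 reached an unadjusted p of 0.05.

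Reactive astrocyte genes had mostly negative fold changes. Of 29 tested 28 had negative fold changes, against 50.8% of all genes, and 0 passed edgeR. At an unadjusted p of 0.05, 0 were higher and 11 lower, against 4.1% and 4.36% of all genes. The list median was -0.64. Without N+F 2 it was -0.66, and without N+F 4 -0.40. Gfap, the filament protein of astrocytes, had 801, 566, 655 and 332 CPM with N+F and 1106, 1440.5 and 653 CPM in controls. Serpina3n, a secreted protease inhibitor of reactive astrocytes, had 61.8, 44.9, 31.02 and 15.1 CPM with N+F and 85.9, 125 and 39.7 CPM in controls. In both genes N+F library 4 was lowest, control 2 was highest and control 3 lay inside the N+F range. Their log2 fold changes were -0.86 ± 0.29 and -1.13 ± 0.41 (edgeR adjusted p = 0.397 and 0.449). Of 15 general astrocyte markers 0 passed, with 0 higher and 1 lower at an unadjusted p of 0.05, and the median was -0.040.

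The transgene-related and amyloid genes showed no call. App had 705, 696, 613 and 760.4 CPM with N+F and 1047, 676 and 766 CPM in controls, and Thy1, whose promoter drives the transgenes of this line, had 638, 740.2, 986 and 940.1 CPM with N+F and 1277, 976 and 1021 CPM in controls. The groups of both overlapped, and the mouse symbol cannot tell transgene from endogenous reads. Of 18 amyloid processing and clearance genes 0 passed edgeR, with 0 higher and 2 lower at an unadjusted p of 0.05 and a median of -0.14. Lrp1, a receptor that clears amyloid and lipoproteins, had 219, 184, 200.04 and 212 CPM with N+F and 267, 239.9 and 228 CPM in controls (edgeR adjusted p = 0.587). Of 23 lysosome genes 22 had negative fold changes, 0 passed, 0 were higher and 3 lower at an unadjusted p of 0.05, and the median was -0.17.

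Housekeeping lists had small positive fold changes. Each of the 30 ribosomal protein genes and each of the 31 oxidative phosphorylation genes was on the positive side, and the medians were 0.23 and 0.18. None passed edgeR, and 4 and 3 of them were higher at an unadjusted p of 0.05. The ribosomal median was 854, 823, 981 and 728 CPM in N+F libraries and 613, 776 and 808 CPM in controls. Control 1 was the lowest library, and without it the 2 medians were 0.09 and 0.10. Myelin markers had a median of -0.16 and oligodendrocyte precursor markers one of -0.27, with 0 of 15 and 0 of 13 past edgeR and 2 and 1 lower at an unadjusted p of 0.05. Leaving out control 3 put the myelin median at -0.29 and leaving out N+F 2 at -0.09. With 1 library left out the precursor median lay between -0.32 (without control 3) and -0.09 (without N+F 2).

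Choroid plexus genes varied within both groups. Ttr, the transthyretin of choroid plexus, had 241, 830.1, 153 and 3900.5 CPM in N+F libraries and 2829.8, 2784 and 1115 CPM in controls. N+F library 4 lay above all controls and the other N+F libraries lay below them. The haemoglobin gene Hba-a1 also varied, with 531, 765, 299.7 and 245 CPM with N+F and 114, 129 and 753 CPM in controls. Neither list had a call in edgeR, with 0 of 13 choroid plexus and ependymal markers and 2 of 11 blood and leukocyte markers at an unadjusted p of 0.05.

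The lists not yet described held few calls. Of 9 subiculum and entorhinal markers Nts alone passed edgeR, with 3 higher and 1 lower at an unadjusted p of 0.05. Of 11 neocortex layer markers Fezf2 alone passed, with 3 higher and 2 lower at that p. Over all genes 4.1% were higher and 4.36% lower. Thalamus markers, Wnt pathway genes, neurotrophic and TGF-beta ligands, and unfolded protein and heat shock genes had 0 calls in edgeR. They had 1, 1, 1 and 0 genes at an unadjusted p of 0.05, all lower. Tgfb2, a TGF-beta ligand, had 16.8, 8.32, 10.3 and 10.4 CPM with N+F and 19.2, 24.1 and 19.997 CPM in controls, without overlap (edgeR adjusted p = 0.234). Some list medians changed sign in at least 1 other setting or without 1 library, so no direction is read from them. These were the GABA receptor, glutamate receptor, potassium channel, dopamine, Nr4a and Foxa, interferon, blood, thalamus, neocortex, Wnt, neurotrophic and unfolded protein lists. Of the 42 lists, the medians of 6 stayed within 1.5 times their value whichever library was left out: the inhibitory neuron, neuropeptide, noncollagen matrix, complement, amyloid and lysosome lists.

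The next 10 genes in each direction, by smallest p among those with separated groups and a mean of at least 5 CPM, did not pass. On the higher side these were Avp, Kcnmb1, Glis3, Gm13490, Gpr157, Rgag4, Meis1, Lpar3, Tigit and Dkk1, with log2 fold changes of 0.58 to 1.79. Glis3, a zinc finger factor, had 48.7, 60.9, 61.05 and 71.02 CPM with N+F and 36.1, 38.3 and 36.7 CPM in controls. Meis1, a homeobox factor, had 132, 149, 159.8 and 162 CPM with N+F and 99.7, 108 and 95.3 CPM in controls. For both genes the 3 controls lay close together. On the lower side they were Col1a2, Tbata, Col5a2, Adcy1, St5, Sulf2, Cpne7, Tnks1bp1, Zfpm2 and Ksr1. Adcy1, a calmodulin-stimulated adenylyl cyclase used in hippocampal plasticity, had 53.02, 62.9, 73.3 and 79.3 CPM with N+F and 117, 116 and 118 CPM in controls (edgeR adjusted p = 0.0737). Sulf2, which removes sulfate from heparan chains, had 31.2, 28.9, 31.1 and 35.4 CPM with N+F and 52.9, 50.9 and 47.3 CPM in controls (edgeR adjusted p = 0.0885).

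The called genes were looked up in the cultured glia of the series, where each group is 1 library and no test can be made. Nts and Neurod6 had 0 counts in both hippocampal glia libraries compared, with N+F and amyloid beta control, where a floor of 3 counts allows up to 0.0496 and 0.0402 CPM. Spp1 had 355 CPM of the library total (exact 95% binomial interval 350.1 to 359.7) in N+F hippocampal glia and 544 CPM (539 to 549) in the control, and 1902 CPM (1892 to 1911) in N+F cortical glia and 449 CPM (444 to 455) in theirs. Col1a1 had 111 CPM (108 to 113) with N+F and 110.2 CPM (108 to 113) in the control, with intervals that overlap. In cortical glia Col1a1 had 2894 CPM (2882 to 2906) with N+F and 47.03 CPM (45.3 to 48.8) in the control. Col12a1 had 704 CPM (697 to 711) with N+F and 498 CPM (493 to 503) in the hippocampal control, and 1096 CPM (1088 to 1103) with N+F and 191 CPM (188 to 195) in the cortical control. In cortical glia all 3 genes were thus higher in the N+F library, whereas they fell in tissue. In hippocampal glia Spp1 was lower with N+F, as in tissue. Of the other called genes, Fibcd1, Fezf2, Iqgap2 and Plekhg5 were lower in the N+F cortical library than in its control. Col5a1, Cemip and Golm1 were higher there, and the rest had few or no counts in cortical glia. In hippocampal glia Iqgap2 had 117.9 CPM with N+F and 39.3 CPM in the control, the reverse of tissue. Fibcd1, Fezf2, Cemip and Golm1 were also higher with N+F in hippocampal glia. Plekhg5 had 16.3 CPM with N+F and 17.6 CPM in that control, and Col5a1 134 and 133 CPM, with intervals that overlap for both.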

How the data were processed

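Hippocampus RNA of 3xTg mice was harvested with Trizol, and 1.3 µg of total RNA per library went into a SMARTER mRNA-seq kit, per the labels' protocols. The authors deposited raw counts per gene symbol for all 7 libraries in 1 table, and counts for the cultured glia in another. TopHat, HISAT2, edgeR and hg19 are named in the submitters' processing notes without roles or versions, and hg19 is a human build although the symbols are mouse. The aligner settings, annotation and strand handling are not given in the sources used here, so overlapping and antisense genes, and near-identical copies such as Hba-a1, cannot be told apart.

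From the 23282 lines, the 44 lines that repeat a symbol were summed, which left 23238 symbols, of which 23132 matched RefSeq. No line lacked a symbol. Genes were filtered with filterByExpr, scaled by TMM and tested with the quasi-likelihood test of edgeR 4.0.16 in R 4.3.3, N+F against control, without covariates, with Benjamini-Hochberg adjustment over 15523 genes and a threshold of 0.05. The standard error is the size of the log2 fold change divided by the square root of F. Foxa2, below the filter, was tested with an exact permutation test. Log2 CPM for principal components used a prior count of 2. The test was first tested on simulated data with known changes.

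The named genes are all genes past the test, the 10 next in each direction by p with a mean of at least 5 CPM and separated groups, Nr4a2, Foxa2 and marked members of the gene lists. The members, the 43 lists and the tests were chosen with earlier results of these data known. The bone cell list, the AP-1 motif, the thinning of control 1, the permutation definition for Foxa2 and the choice of list members shown were made after values were seen. Alternatives were other scaling, filters and tools, the replicate number as a block, and leaving out each library. All 7 libraries were counted as separate samples. Libraries of 1 group differed by more than sampling noise, with chi-square per gene of 15.0 to 56.1. Such a spread can be technical, so it cannot show whether they are separate animals.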

Additional observations from a re-analysis of the deposited data

Results flagged for a closer look

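In 152 values checked over the 4 N+F libraries, 4 had 1 library farther from the others than Dixon's critical value at 95% allows, where chance flags about 1 in 20. Col1a1 stood at 8.478 CPM in N+F library 4, against 3.816 to 4.248 CPM in the other N+F libraries, and still lay below the lowest control. Foxa2 stood at 2.608 CPM in N+F library 1, against 0.09871 to 0.4789 CPM in the other N+F libraries. The median level of lysosome genes was 49.41 CPM in N+F library 1, against 38.31 to 40.01 CPM in the other N+F libraries. N+F library 4 had 20221 symbols counted, against 17739 to 18156 in the other N+F libraries.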

How the results depend on the processing

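The 17 genes past edgeR's test kept their direction in all settings tried, but the number of calls changed. The groups of these genes did not overlap, so other settings of the same libraries could hardly reverse them. Genes higher and lower with N+F numbered 1 and 16 in the main result. The number higher was 0 with upper-quartile factors, with a filter of 1 CPM in 3 libraries, with limma-voom with or without sample weights, without Rn45s, with the replicate block and with control 1 thinned (chosen after seeing the data). It was 2 without a count filter, 68 with DESeq2 and 43 with the edgeR likelihood ratio test. The number lower was 27 without a count filter, 77 with DESeq2, 85 with the likelihood ratio test, 9 with limma-voom with sample weights, and 0 with limma-voom and with the replicate block. Leaving out 1 library at a time gave 0 to 1 higher and 0 to 28 lower. The cause of these changes was not tested. Of the calls, 46.9% were higher in DESeq2 and 5.88% in the main result. Replicate numbers are not stated to pair the libraries. Deviations of same-numbered libraries had correlations of -0.0013, -0.083 and 0.125. Over every N+F and control pair these ran from -0.176 to 0.125, which cannot settle whether the libraries are paired. With the block 1558 genes had an unadjusted p under 0.05 in edgeR. With 1 library left out Nr4a2 ran from -0.47 to 0.11 on the log2 scale, the positive value without control 3. Of 1976 single-gene values, 1743 kept their side of the threshold and direction, 151 lost it, 81 gained it and 1 reversed. Most of these values are of genes not called in the main result. Only the 17 called genes could lose a call, and they passed in 5 (Nts) to 12 (Spp1) of the 19 other settings. Libraries held 10194437 to 25139406 counts, and the median standard error of a log2 fold change was 0.19.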
